A study of Mus musculus with 8 samples.

Results

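Within the tumours treated with antisense oligonucleotides (ASO) against Smyd3 plus anti-PD-1, 2 tumours labelled responder were compared with 2 labelled non-responder. These 4 of the 8 tumours of the study were chosen by the response mark in their labels. All were grown from MOC1, a mouse oral squamous carcinoma line, as flank implants in C57BL/6 mice, and were resected after 32 days of treatment. The source label names an oral tongue carcinoma, whereas the series design places the implants in the flank. One further tumour of the same treatment carries no response mark and stayed out of the comparison, and 3 tumours given control ASO plus anti-PD-1 were used for the spread between tumours and as a reference. The labels number the responders 1 and 3 and give the non-responders no numbers, so non-responder 1 and 2 are named here by the order of listing. How response was scored is not given in the sources used here, and the groups were formed by outcome, not by random assignment.

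Smyd3 encodes a lysine methyltransferase, and an ASO binds a complementary RNA and directs its cleavage by RNase H. Anti-PD-1 antibody blocks an inhibitory receptor on T cells. Tumours that answer to such blockade are often rich in cytotoxic T cells, in interferon gamma targets, which include the antigen presentation machinery, and in B and plasma cells. A bulk tumour sample also holds stroma and whatever host tissue borders the implant, such as skin, muscle, fat and glands. In bulk RNA, fewer cells of a type and less RNA per cell cannot be told apart.

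Expression was measured by polyA RNA sequencing, with 22103853 to 27258700 expected counts per tumour over all 8. Mitochondrial genes took 1.94% to 2.58% of the counts. Of 55450 genes, 16438 had 10 or more reads in at least 2 of the 4 tumours and were tested. Levels are given as CPM, counts relative to library size, after scaling by the trimmed mean of M values (TMM), and CPM is not adjusted for gene length. With 2 tumours against 2, an exact two-sided permutation test over the 6 splits cannot go below p = 0.333, so none is given for single genes. Tests are those of the edgeR quasi-likelihood fit across all genes, with log2 fold changes as responder minus non-responder.

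The targeted gene did not separate the groups. Smyd3 stood at 8.67 and 4.37 CPM in responders 1 and 3, and at 9.24 and 4.88 CPM in non-responders 1 and 2. The 3 controls were at 10.6 to 11.9 CPM, above all 4 of these tumours. Each group thus held 1 tumour somewhat below the controls and 1 well below them. Relative to the mean of the 3 controls, responder 1 and non-responder 1 were at 78% and 83.2%, and responder 3 and non-responder 2 at 39.4% and 43.9%. The log2 fold change was -0.12 ± 0.42 (SE, n = 2 against 2, edgeR FDR 0.958).

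No gene passed an edgeR false discovery rate (FDR) of 0.05 in either direction, a share of 0% of genes tested, and the lowest FDR was 0.307. At an unadjusted p under 0.05, the same fit held 796 genes on the higher side (4.84%) and 621 on the lower side (3.78%), 1417 in all (8.62%). DESeq2 called 156 genes higher and 68 lower at the same threshold, and limma voom called 0. The values below therefore describe 4 tumours, and no gene named below passed the test in the edgeR fit.

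Complete separation was common, but a share of 0.333 of the 6 splits of 4 tumours separates any gene without ties, counting both directions. In 3369 genes (20.5%) both responders lay above both non-responders, and in 3129 genes (19%) both lay below. A gap of at least 2-fold between the nearest tumours of the 2 groups was found for 346 genes on the higher side (2.1%) and 72 on the lower side (0.438%). With 10 or more reads required in all 4 tumours, these counts were 176 and 38. Of the 418 genes with such a gap, 72 belonged to one of the gene lists described below. Those lists were chosen with earlier results of these data known, so their counts are descriptive. The shares over all genes given above stand as the reference for them, as does the 51.5% of all genes with a fold change above 0. Tumours of the same label also differed from each other: 1757 genes (10.7%) differed 2-fold or more between the 2 responders and 1849 (11.2%) between the 2 non-responders. Responder 1 and non-responder 2 were closer than either of those pairs, with 1357 genes (8.26%), whereas responder 3 and non-responder 1 were the most distant pair, with 3243 genes (19.7%).

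**Figure D1:**
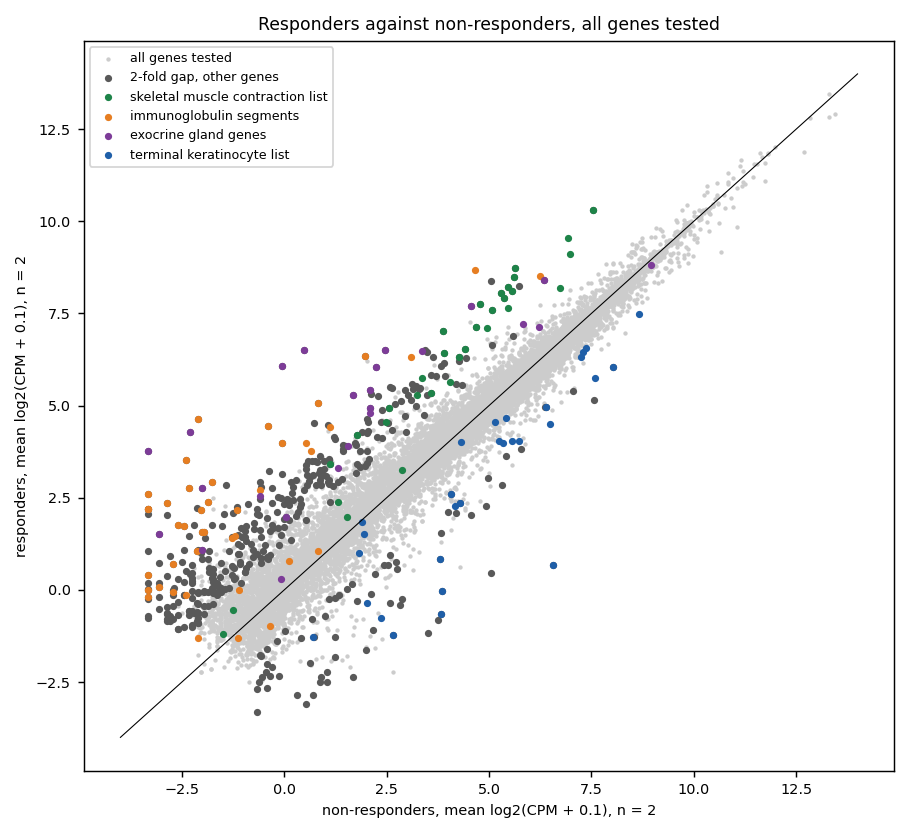
Mean log2(CPM + 0.1) of the 2 responders (vertical axis) against the 2 non-responders (horizontal axis) for each of the 16438 genes tested, with the line of equality. Coloured points mark gene groups, and dark points mark the other genes with a gap of at least 2-fold; most muscle, immunoglobulin and gland genes lie above the line, with exceptions such as Ltf, and most terminal keratinocyte genes lie below it.

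The genes with the smallest p on the higher side were mostly genes expressed in muscle. Des, the muscle intermediate filament desmin (ENSMUSG00000026208.9, chromosome 1, 75360329 to 75368579, plus strand), stood at 228 and 397 CPM in the responders and at 48.8 and 57.5 CPM in the non-responders. The groups did not overlap, and the log2 fold change was 2.56 ± 0.28 (SE, edgeR FDR 0.307). Fhl1, a LIM-domain protein abundant in muscle, was at 67.0 and 91.0 against 23.5 and 19.9 CPM. Cryab, a small heat shock protein that binds desmin, was at 59.4 and 91.3 against 16.9 and 22 CPM. Both responders again exceeded both non-responders. Ankrd1, a cardiac and muscle ankyrin-repeat protein, was at 30.0 and 23.5 against 10.8 and 10.4 CPM. Ucp3, a mitochondrial carrier of muscle, was at 5.26 and 6.98 against 0.87 and 1.22 CPM. Chpt1, a choline phosphotransferase, was at 46.3 and 48.4 against 18.4 and 22 CPM, with nearly equal responders. Emid1 was at 27.9 and 43.8 against 5.70 and 8.84 CPM, and Ighg3 is described with the immunoglobulins.

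Across the list of contractile genes, all 32 members tested had a fold change above 0, with a median of 2.74 on the log2 scale beside 0.01 over all genes tested. The median was 1.57 without responder 3 and 3.45 without responder 1. Of these 32, 27 were separated and 18 had the 2-fold gap, against the 20.5% and 2.1% of all genes. Acta1, skeletal alpha actin, stood at 593 and 2659 CPM in the responders and at 143 and 243 CPM in the non-responders. Responder 3 was far above responder 1, the groups did not overlap, and the log2 fold change was 3.08 ± 0.74 (SE, edgeR FDR 0.48). Tnni2, a fast troponin, was at 102 and 373 against 33.6 and 34.2 CPM, and Tnnt3, its partner troponin T, at 201 and 895 against 40.9 and 59.2 CPM. Ryr1, the calcium release channel, was at 50.8 and 172 against 21.0 and 21.7 CPM. Not every muscle gene followed: Myh4, a fast myosin heavy chain, was at 112 and 2724 CPM in the responders and at 116 and 139 CPM in the non-responders. Its groups overlapped, and only responder 3 stood out among these 4.

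Promoters of this list are shown because so many of its members were separated. The sequences are from RefSeq (GRCm38.p6), 250 bases before to 50 after the gene start, 5′ to 3′ on the gene's strand, with the E-box CAGCTG, a palindrome that myogenic factors can bind, in capitals. Des is chr1:75360042-75360341 on the plus strand, and Acta1 is chr8:123894726-123895025 on the minus strand.
Des: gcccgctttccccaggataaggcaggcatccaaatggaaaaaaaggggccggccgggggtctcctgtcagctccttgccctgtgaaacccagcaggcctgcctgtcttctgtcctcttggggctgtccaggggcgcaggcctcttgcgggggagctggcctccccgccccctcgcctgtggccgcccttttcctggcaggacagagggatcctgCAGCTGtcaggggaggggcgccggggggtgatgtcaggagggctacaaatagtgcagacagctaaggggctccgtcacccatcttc
Acta1: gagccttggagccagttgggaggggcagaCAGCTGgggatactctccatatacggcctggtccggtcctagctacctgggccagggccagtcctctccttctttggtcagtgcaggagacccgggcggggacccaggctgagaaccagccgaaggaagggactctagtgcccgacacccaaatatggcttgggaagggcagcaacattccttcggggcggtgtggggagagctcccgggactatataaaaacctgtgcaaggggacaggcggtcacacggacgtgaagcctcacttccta
The match begins 36 bases before the start in Des and 221 bases before it in Acta1. Of the 33 listed genes, 26 were found by symbol, with 33 promoters, and 45.5% of these held CAGCTG beside 16.3% of all 32851 RefSeq promoters of that length. The match is a description of letters and says nothing on binding in these tumours.

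The muscle regulators were lower in level and less far apart. Of 16 members tested, 15 had a fold change above 0, with a median of 0.98, and 5 had the 2-fold gap. Myf6, a myogenic factor of mature fibres, was at 6.92 and 8.71 against 1.01 and 1.26 CPM. Chrnd, the delta subunit of the muscle acetylcholine receptor, was at 2.55 and 2.02 against 0.37 and 0.35 CPM. Myod1 was at 0.97 and 1.95 against 0.60 and 0.30 CPM, and Pax7, the satellite cell factor, did not reach the read filter, with 3 and 22 reads against 3 and 1. Smyd1, the muscle-restricted relative of Smyd3, was at 8.10 and 41.8 against 3.03 and 3.62 CPM. The summed CPM of the contractile list was 3131 and 15010 in the responders, 933 and 1360 in the non-responders, 6795 in the tumour without a mark and 64.8 to 155 in the controls. How far muscle at the implant site contributes was not tested.

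**Figure D2:**
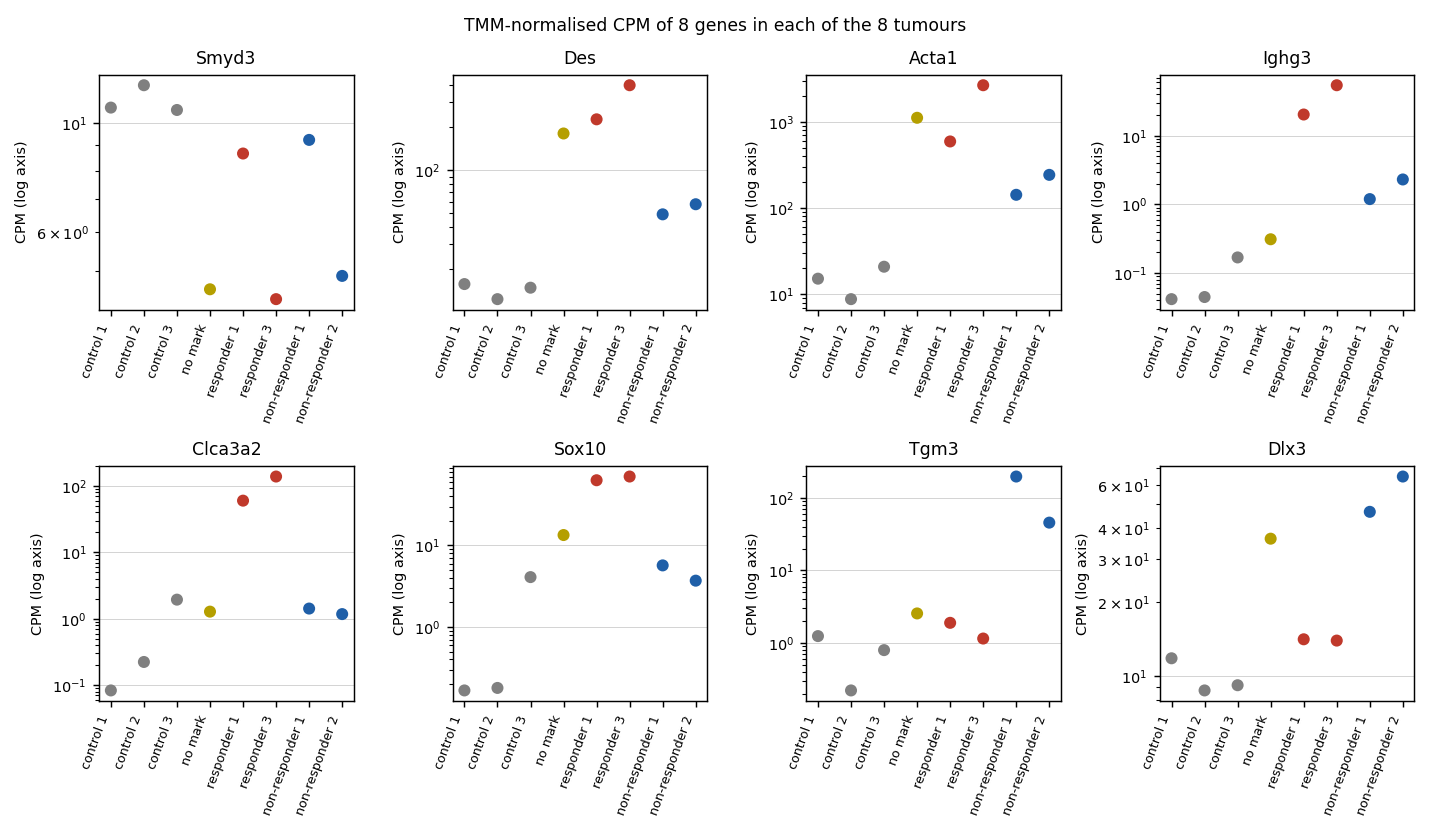
TMM-normalised CPM (log axis) of 8 genes in each of the 8 tumours, 1 point per tumour, with controls grey, the tumour without a mark yellow, responders red and non-responders blue. Smyd3 overlaps between responders and non-responders, and the other 7 genes do not.

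The fold changes of fat genes came mainly from responder 3. Of 14 adipocyte genes tested, 12 had a fold change above 0, with a median of 2.65. In 9 both responders lay above both non-responders, beside 20.5% of all genes, and 3 had the 2-fold gap, beside 2.1%. Cfd, the complement protease adipsin, was at 7.17 and 74.3 CPM in the responders and at 0.69 and 3.35 CPM in the non-responders. Car3, a carbonic anhydrase of fat and muscle, was at 176 and 623 against 22.3 and 49.6 CPM. Adipoq, the fat hormone adiponectin, was at 1.13 and 17.2 against 0 and 0.78 CPM, and Plin1, which coats fat droplets, overlapped at 0.45 and 11.8 against 0.14 and 0.48 CPM. Without responder 3 the median of the list was 0.39.

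Genes of milk, saliva and gland ducts stood apart in both responders. This group of 30 genes was drawn up after its values had been seen, and the other lists with earlier results of these data known. Its counts are descriptive and support nothing. Of 24 tested, 23 had a fold change above 0 and 15 had the 2-fold gap, with a median of 3.78 that was 2.36 without responder 3. Clca3a2, a chloride channel accessory protein of secretory epithelia (ENSMUSG00000028262.13, chromosome 3, 144796559 to 144819494, minus strand), was at 60.1 and 139 CPM in the responders and at 1.43 and 1.176 CPM in the non-responders. The tumour without a mark was at 1.28 CPM and the controls at 0.08 to 1.94 CPM, so only the 2 responders were high among the 8 tumours. Trf, the iron carrier transferrin, also secreted in milk, was at 285 and 412 against 90.4 and 73.2 CPM, with a log2 fold change of 2.09 ± 0.35 (SE, edgeR FDR 0.392).

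The 2 responders did not carry the same gland genes to the same extent. The caseins, milk proteins, favoured responder 1 for Csn1s1, at 133 and 63.3 against 3.17 and 9.19 CPM. Csn2 was at 55.6 and 3.18 CPM in the responders and had 0 reads in both non-responders, at least 416-fold lower when 3 reads are set over that group. Csn3 was highest in responder 3, at 51.2 and 156 against 3.22 and 32.2 CPM. Wap and Lalba, 2 further milk genes, did not reach the filter, with 0 reads in every tumour for Wap and 4 at most for Lalba. Foxi1, the factor of ionocytes and acid-secreting duct cells, was at 44.5 and 8.28 against 0.18 and 0.04 CPM, and its proton pump target Atp6v1b1 at 98.2 and 18.4 against 3.17 and 5.53 CPM. Other genes of this group were highest in responder 3. Lpo, lactoperoxidase, was at 14 and 109 against 2.44 and 4.01 CPM, and Car6, the secreted carbonic anhydrase, at 2.67 and 16.5 against 0.09 and 0.22 CPM. Dcpp3 was at 1.38 and 519 against 3.86 and 4.44 CPM, with overlap, and its near copies make its share of reads uncertain.

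Some gland-associated genes were nearly equal in the 2 responders. Sox10, a factor of Schwann cells, melanocytes and gland epithelium, was at 63.1 and 70.1 against 5.70 and 3.70 CPM. It was at 13.4 CPM in the tumour without a mark and at 0.17 to 4.09 CPM in the controls. Tyrp1, a pigment cell enzyme, had 0 reads in all 8 tumours. The Schwann cell list had a mean log2 CPM of 2.71 and 2.73 against 1.90 and 2.21. Of its 11 members, 7 had a fold change above 0 and 4 below, with a median of 0.39 that was -0.06 without responder 1. Which cells carried Sox10 was not tested. Pigr, which carries IgA across epithelium, was at 29.6 and 31.4 against 2.25 and 7.54 CPM, and Lcn2, an iron-binding defence protein, at 176 and 248 against 19.1 and 28.7 CPM. Aqp5, a water channel of glands, was separated by less, at 146 and 137 against 63.1 and 87.2 CPM. The controls were at 32.7 to 127 CPM for Aqp5, 8.59 to 83.5 CPM for Lcn2 and 0.27 to 6.58 CPM for Pigr. For Aqp5 a control thus came near the responders. Ltf, the secreted protein lactoferrin, overlapped at 310 and 645 against 281 and 882 CPM. The part of gland tissue in these values was not tested.

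Immunoglobulin genes showed a like pattern. Ighg3, a heavy chain constant region (chromosome 12, 113356224 to 113361232, minus strand), stood at 20.4 and 54.5 CPM in the responders and at 1.20 and 2.31 CPM in the non-responders. The log2 fold change was 4.41 ± 0.62 (SE, edgeR FDR 0.364). Igha was at 38.4 and 174 against 1.52 and 9.32 CPM, and the lambda constant gene Iglc2 at 17.7 and 7.34 against 0 and 0.26 CPM. Of the 218 variable segments in the table, 35 and 85 had 10 or more reads in responders 1 and 3, against 1 and 14 in non-responders 1 and 2, 2 in the tumour without a mark and 0 to 7 in the controls. Reads on such near-identical segments can be split between copies, so single segments are uncertain.

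Not all antibody genes were separated, and non-responder 2 often came near responder 1. Ighm, the IgM constant region, was at 278 and 483 against 26.2 and 221 CPM. Igkc, the kappa constant region, was at 143 and 1164 against 6.48 and 98.2 CPM, and Jchain, which joins IgA and IgM, at 39.2 and 140 against 0.55 and 25.6 CPM. Ighg1 was at 6.96 and 889 against 8.27 and 8.67 CPM, so responder 1 lay below both non-responders. Of the 18 tested members of the plasma cell list, 16 had a fold change above 0 and 5 had the 2-fold gap, with a median of 2.97 that was 1.32 without responder 3 and 5.94 without non-responder 2. Prdm1, the plasma cell factor that keratinocytes also express, had the opposite sign at 39.1 and 40.9 against 78.4 and 51.4 CPM, and Xbp1 was at 270 and 297 against 171 and 221 CPM.

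B cell genes were low in all 4 tumours and separated in most cases. Of 17 listed genes, 14 passed the read filter. All 14 had a fold change above 0, with a median of 1.35, and 3 had the 2-fold gap, beside 2.1% of all genes. The median was 0.76, with 11 of 14 above 0, without responder 3 and 2.18 without non-responder 2. Ms4a1, the CD20 gene, was at 0.53 and 1.23 against 0.05 and 0.13 CPM, and Cd79a, part of the B cell receptor, at 1.3 and 3.33 against 0.14 and 0.65 CPM. These levels correspond to few reads, 1 CPM being 21.8 to 27.7 reads. Ms4a1 had 47 reads in the responders and 4 in the non-responders, so it passed the read filter through the responders alone. For such genes the filter itself favours a fold change above 0, so the count of members above 0 gives no support. Ccl19, a chemokine of lymphoid tissue, was at 0.93 and 1.66 against 0.18 and 0.04 CPM, and Cxcl13, which attracts B cells, at 3.16 and 13.3 against 0.87 and 2.83 CPM. The octamer ATTTGCAT, on either strand, was in 0 of 15 promoters of 12 listed B cell genes found in RefSeq, beside 1.74% of all promoters.

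T cell genes were ordered alike in most members, with responder 1 close to non-responder 2. The T cell list had 21 of 22 members above 0, beside 51.5% of all genes, with a median of 1.26. In 15 both responders lay above both non-responders, beside 20.5% of all genes, but none had the 2-fold gap. Without responder 3 the median was 0.63, with 19 of 22 above 0. Cd8a, the cytotoxic co-receptor, stood at 17.7 and 39.4 CPM in the responders and at 7.72 and 16.5 CPM in the non-responders. Responder 1 and non-responder 2 thus differed little, and the log2 fold change was 1.24 ± 0.50 (SE, edgeR FDR 0.562). Cd3e, of the receptor complex, was at 6.24 and 13.7 against 2.44 and 4.88 CPM, and Cd3d at 6.11 and 10.9 against 2.85 and 3.88 CPM. Cd4 overlapped at 12.6 and 25.1 against 7.49 and 13.1 CPM. Tcf7, a T cell factor also found in epithelium, had the opposite sign at 59.6 and 46.4 against 70.5 and 103 CPM.

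The cytotoxic list had 18 of 19 members above 0, with a median of 1.23 that was 0.39 without responder 3. Gzmb, a granule protease, was at 13.3 and 38.6 against 6.66 and 13.7 CPM, with overlap. Nkg7 was at 13.0 and 29.0 against 4.64 and 9.28 CPM, and Ifng, interferon gamma itself, at 2.19 and 3.54 against 0.97 and 1.70 CPM. Ifng and Nkg7 were separated, though by less than 2-fold. Pdcd1, the PD-1 gene, overlapped at 6.92 and 16.0 against 2.57 and 7.84 CPM. Cd274, its ligand, overlapped at 78.1 and 167 against 61.9 and 101 CPM. Foxp3, the regulatory T cell factor, was at 4.13 and 6.15 against 1.47 and 3.75 CPM, and Lag3, another inhibitory receptor, at 14.1 and 33.0 against 10.3 and 13.7 CPM.

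Interferon targets and antigen presentation genes differed by smaller amounts, and non-responder 1 was the low tumour. All 24 genes of the interferon gamma list had a fold change above 0, with a median of 0.65, and none had the 2-fold gap. The median was 0.30 without non-responder 1 and 1.12 without non-responder 2. Irf1, a factor induced by interferon gamma, stood at 364 and 425 CPM in the responders and at 231 and 323 CPM in the non-responders, and Gbp3, a guanylate-binding protein, at 238 and 256 against 109 and 203 CPM. Irgm1 was nearly equal in responder 1 and non-responder 2, at 566 and 984 against 321 and 564 CPM. The MHC class I list had 19 of 19 members above 0, with a median of 0.47, and the class II list 11 of 11, with a median of 0.76. Without non-responder 1 these medians were 0.18 and 0.46, and without non-responder 2 they were 0.84 and 1.15. Psmb8, an immunoproteasome subunit, was at 410 and 383 against 205 and 311 CPM, and Tap1, the peptide transporter, at 607 and 636 against 344 and 545 CPM. H2-Aa, a class II chain, was at 739 and 1116 against 428 and 685 CPM.

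The mean log2 CPM of a list gives the same order per tumour. For the interferon gamma list it was 7.16 and 7.67 in responders 1 and 3, and 6.35 and 7.16 in non-responders 1 and 2, against 5.45 to 6.03 in the controls. Responder 1 and non-responder 2 differed by 0.002, so the order of the groups rests on that difference. The type I interferon list overlapped, with 6.00 and 6.53 against 5.15 and 6.20, and its median fold change was 0.50, or 0.06 without non-responder 1. Of 17 immune lists, 12 had both responders above both non-responders, beside 22 of all 39 lists. Among the 12, the margin was 0.001 for macrophages and 0.043 for checkpoints. The other 5 overlapped: gamma-delta and type 17, type I interferon, neutrophil, inflammatory cytokine and mast cell.

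**Figure D3:**
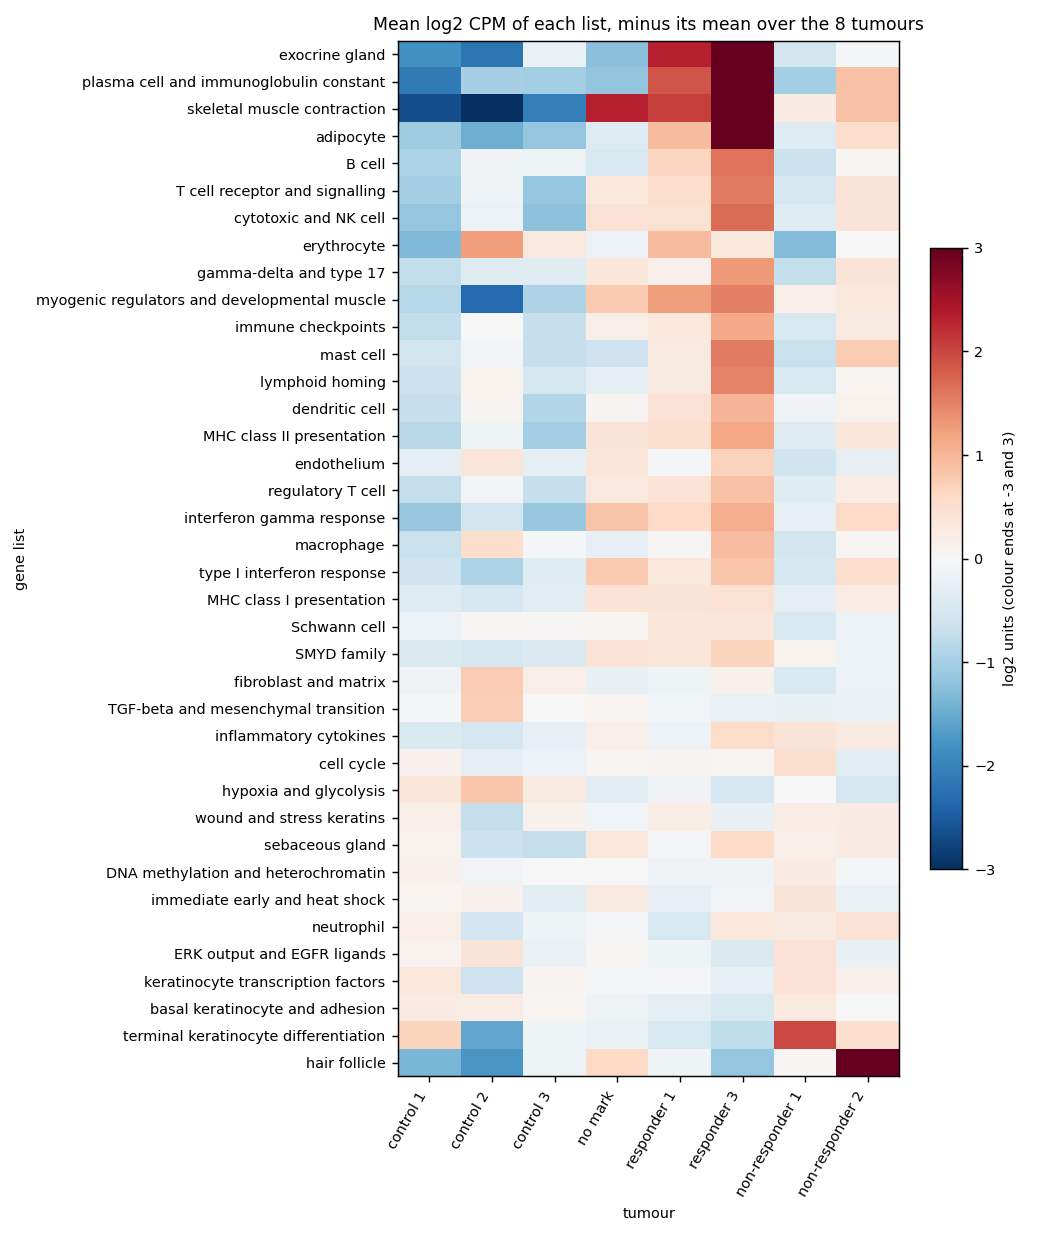
Mean log2 CPM of 38 gene lists (rows) in each of the 8 tumours (columns), minus the row's mean over the 8 tumours, with colours ending at -3 and 3. Responder 3 is the reddest column in the gland, plasma cell, muscle and fat rows, non-responder 1 is below non-responder 2 in the T cell and interferon rows, and the hair follicle row is high in non-responder 2 alone.

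Myeloid genes did not move as one. The macrophage list had 16 of 19 members above 0, with a median of 0.61 that was 0.26 without responder 3, and Adgre1, the F4/80 gene, was at 53.8 and 98.7 against 29.9 and 48.3 CPM. Retnla, a marker of alternatively activated macrophages, was at 2.15 and 25.4 against 0.46 and 0.70 CPM. The neutrophil list had 1 of 12 above 0, with a median of -0.33, and its direction turned on 1 tumour: without responder 1 it was 0.13, with 8 of 12 above 0, and without responder 3 it was -1.27. Mmp9, a matrix protease carried by neutrophils and also made by other cells, was at 46.0 and 38.1 against 185 and 93.7 CPM. S100a8, a neutrophil calcium-binding protein that stressed keratinocytes also make, was at 24.6 and 42.2 against 59.8 and 63.9 CPM. Csf3r, a receptor of neutrophils, overlapped at 42.3 and 99.1 against 85.3 and 84.1 CPM. Il1a, a cytokine of keratinocytes and myeloid cells, was at 11.3 and 16.1 against 33.7 and 21.8 CPM.

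Of the 8 lower genes by smallest p, Tgm3 and Dlx3 are genes of keratinocyte differentiation. Tgm3, the transglutaminase that crosslinks the cornified envelope (ENSMUSG00000027401.9, chromosome 2, 130012349 to 130050399, plus strand), stood at 1.90 and 1.16 CPM in the responders and at 196 and 45.5 CPM in the non-responders. The tumour without a mark was at 2.56 CPM and the controls at 0.22 to 1.25 CPM, so the 2 non-responders were the high tumours among the 8. The log2 fold change was -6.30 ± 0.90 (SE, edgeR FDR 0.364). Dlx3, a homeobox factor of differentiating epidermis, was at 14.1 and 13.9 against 46.6 and 64.9 CPM, with a log2 fold change of -1.99 ± 0.23 (SE, edgeR FDR 0.307). Controls were at 8.72 to 11.8 CPM for Dlx3, near the responders, and the tumour without a mark was between, at 36.2 CPM.

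All 29 terminal differentiation genes tested had a fold change below 0, with a median of -1.83; 22 were separated and 9 had the 2-fold gap, against 19% and 0.438% of all genes. Krt13, a keratin of mucosal epithelium, was at 32.0 and 30.6 against 89.8 and 78.6 CPM. Lor, the envelope protein loricrin, was at 2.55 and 1.09 against 25.9 and 7.27 CPM, and Cdsn, of the cornified junctions, at 63.8 and 44.7 against 343 and 108 CPM. Sprr1b, a small proline-rich envelope protein, was at 26.6 and 19.1 against 262 and 30.5 CPM. Non-responder 1 was the higher of the non-responders for these 4 genes, and without it the median of the list was -0.79. The controls did not all lie with the responders: the mean log2 CPM of the list was 4.24, 2.02 and 3.44 in controls 1, 2 and 3, against 3.11 and 2.81 in the responders and 5.56 and 4.08 in the non-responders. Krt10, the keratin of early differentiation, differed little, at 3.56 and 2.13 against 3.77 and 3.70 CPM.

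The Tgm3 promoter is shown as that of the gene with the largest fold below 0 among the 8 lower genes chosen by smallest p. It is chr2:130012090-130012389 on the plus strand (RefSeq, GRCm38.p6), with TATAAA in capitals.
Tgm3: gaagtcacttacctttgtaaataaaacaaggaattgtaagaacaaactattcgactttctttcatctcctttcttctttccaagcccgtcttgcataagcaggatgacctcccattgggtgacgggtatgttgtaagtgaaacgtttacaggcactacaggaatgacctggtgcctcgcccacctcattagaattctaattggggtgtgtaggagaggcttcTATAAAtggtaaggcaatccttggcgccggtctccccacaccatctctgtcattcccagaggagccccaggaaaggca
The match begins 28 bases before the gene start. TATAAA, on either strand, was in 40.6% of the 32 promoters of 29 listed differentiation genes found in RefSeq, of 33 listed, beside 13.6% of all promoters and 24.2% of the muscle promoters. CAGCTG was in 18.8% of the same 32.

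Basal and tumour-cell keratin genes were closer between groups. The basal list had 21 of 23 members below 0, with a median of -0.62 that was -0.36 without non-responder 1, and none with the 2-fold gap. Trp63, the p63 factor of basal keratinocytes, was at 352 and 296 against 745 and 417 CPM. Krt5 overlapped at 7790 and 6756 against 13890 and 7388 CPM, and Krt14, its partner, was at 8723 and 6741 against 14030 and 9053 CPM. Itga6, of the basal attachment complex, was at 601 and 476 against 1261 and 812 CPM. Epcam, an epithelial adhesion protein, overlapped at 480 and 306 against 189 and 324 CPM. The keratin Krt16 was at 604 and 546 against 3121 and 833 CPM, and Krt6a, whose near copy makes it uncertain, at 3789 and 3752 against 9371 and 4664 CPM. The summed CPM of the basal list, which marks the carcinoma cells as well as host epidermis, was 28480 and 25050 in the responders and 46230 and 33330 in the non-responders. Its part in the immune, muscle and gland differences was not tested.

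Hair follicle genes were carried by non-responder 2. Of 22 listed genes, 12 passed the read filter. Hoxc13 and Krt73, among others not checked here, passed it through the non-responders alone, with 2 and 9 reads in the responders. For such genes the filter itself favours a fold change below 0, so the count of members below 0 gives no support. All 12 had a fold change below 0, with a median of -3.66 that was -0.95 without non-responder 2. Krt73, an inner root sheath keratin, was at 0.36 and 0 against 0.64 and 53.8 CPM. Krt25 overlapped at 0.49 and 0 against 0 and 24.3 CPM. Tchh, trichohyalin, was at 45.9 and 27.7 against 114 and 316 CPM. Hoxc13, a hair factor, had 2 reads in the responders and 55 in the non-responders, a ratio of 0.0311 (95% counting interval 0.00367 to 0.118). Unlike the keratins, Hoxc13 was higher in both non-responders, at 0.78 and 1.66 CPM, than in any of the other tumours, where it was at most 0.27 CPM.

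**Figure D4:**
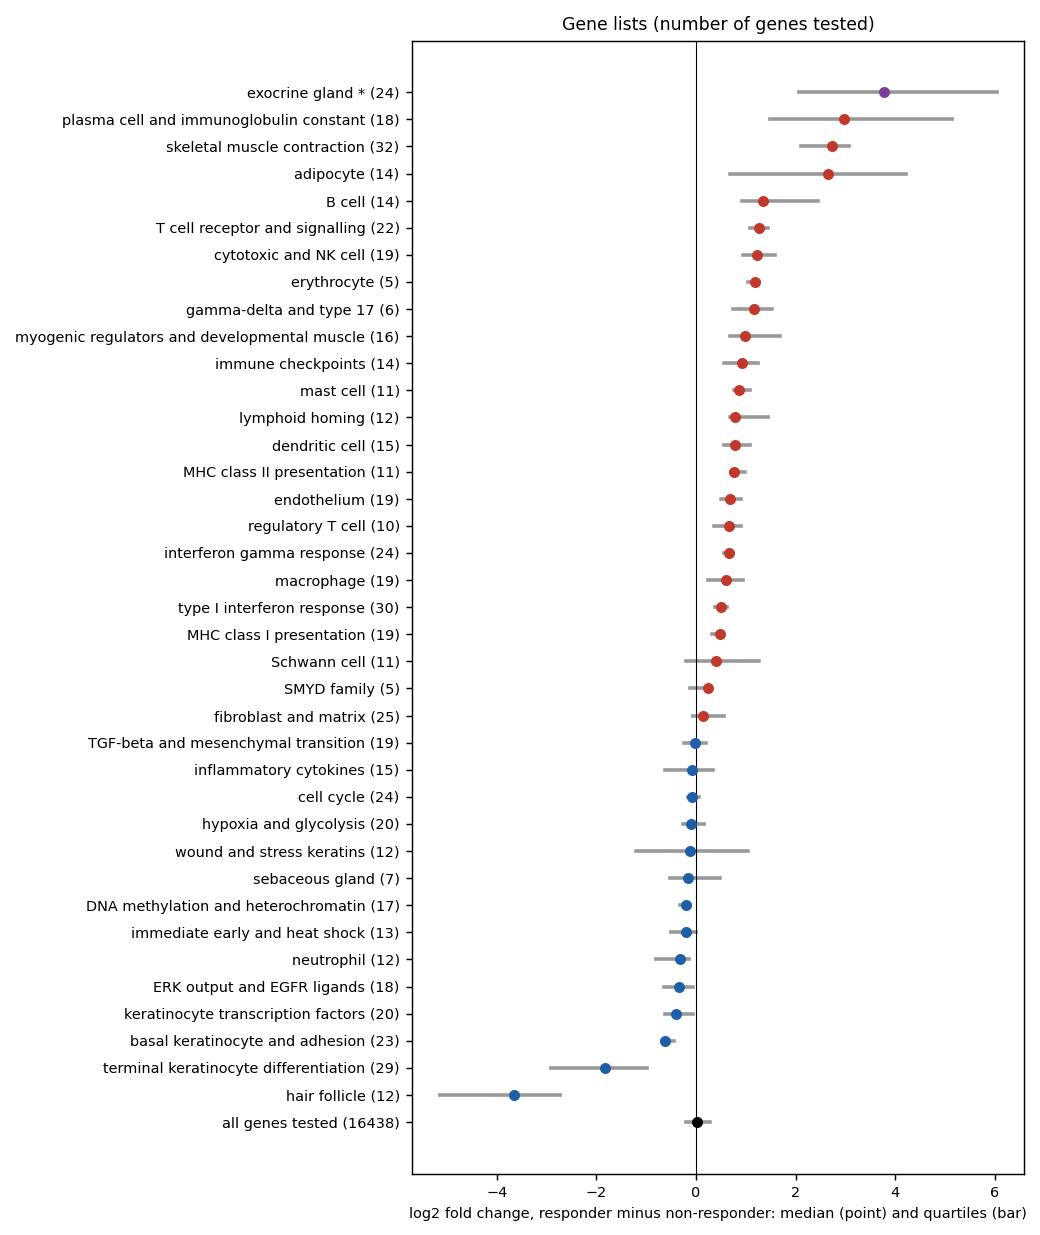
Median (point) and quartiles (bar) of the log2 fold change, responder minus non-responder, over the tested members of 38 gene lists, with the number tested, and over all 16438 genes (black). Contractile, immunoglobulin and adipocyte lists have medians above 2.6, and differentiation and hair follicle lists below -1.8. The list with an asterisk was drawn up after values had been seen, and the others were chosen with earlier results of these data known.

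Most of the remaining lower genes by smallest p belonged to no list. Srcap, the ATPase of a chromatin remodelling complex, stood at 6.48 and 10.1 CPM in the responders and at 26.8 and 37.0 CPM in the non-responders. The tumour without a mark was at 34.1 CPM and the controls at 137 to 204 CPM, so all 5 Smyd3 ASO tumours were below all controls. Polr2a, the largest subunit of RNA polymerase II, was at 200 and 207 against 356 and 331 CPM, a narrow spread in both groups. Neo1, a netrin receptor, was at 65.0 and 67.0 against 140 and 121 CPM, and Fzd6, a Wnt receptor, at 60.8 and 59.8 against 101 and 107 CPM. Igf2bp2, an RNA-binding protein, was at 16.9 and 19.9 against 34.4 and 33.8 CPM.

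Among stroma, proliferation and signalling lists, the endothelial list stood apart from the median of all genes. It had 19 of 19 members above 0, beside 51.5% of all genes, and 13 separated, beside 20.5%. Its median was 0.68, and 0.41 without responder 3. The mean log2 CPM of this list was 3.61 and 4.34 in the responders and 3.05 and 3.40 in the non-responders. The controls were at 3.35 to 4.01, so responder 1 lay within their range. Pecam1, an endothelial adhesion protein, was at 93.1 and 118 against 59.8 and 75.3 CPM, and at 60.1 to 140 CPM in the controls. The fibroblast list had 16 of 25 above 0, with a median of 0.13, and Col1a1 overlapped at 1354 and 1484 against 1644 and 1427 CPM. The cell cycle list had 9 of 24 above 0, with a median of -0.08. Without non-responder 1 the median was 0.38, with 24 of 24 above 0, and without non-responder 2 it was -0.43, with 2 of 24. Mki67, a marker of cycling cells, overlapped at 248 and 241 against 378 and 205 CPM. Cdh2, N-cadherin, was at 9.84 and 7.27 against 1.56 and 2 CPM, although its list had a median of -0.03. Etv5, a target of ERK signalling, was at 95.4 and 99.3 against 55.8 and 59.4 CPM, whereas 14 of 18 members of its list were below 0.

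The tumour without a mark was placed on neither side. Of the 346 genes with the 2-fold gap on the higher side, it stood at or beyond the responders in 108, between the groups in 132 and at or beyond the non-responders in 106. It was at or beyond the responders for 16 of 23 such muscle genes and lay on the non-responder side for 25 of 26 such immunoglobulin segments. Of the variable segments, 30 were tested, but non-responders 1 and 2 had 10 or more reads in only 1 and 14. Many segments thus passed the read filter through the responders alone. A tumour with few such reads then falls on the non-responder side almost by construction, so the count for segments gives no support. The 3 controls were on the non-responder side for 280, 254 and 244 of the 346 genes, and for all 23 muscle genes. Of the 72 lower genes, the tumour without a mark was on the responder side in 21, between in 33 and on the non-responder side in 18.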

How the data were processed

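Bulk polyA RNA of 8 mouse tumours was sequenced from TruSeq Stranded mRNA libraries, per the labels' protocols. Tools listed in the submitters' processing notes are RSEM 1.3.0, STAR 2.7.0f, cutadapt 1.18 and bcl2fastq 2.17, with the genome build mm10. The authors deposited a table of expected counts, genes by tumours, without scaling for depth. The annotation is not given in the sources used here. All 55450 identifiers were found in GENCODE M21, which gave coordinates, and the symbols are those in the deposited identifiers.

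Expected counts were rounded. The 16438 genes with 10 or more reads in at least 2 of the 4 tumours held 99.89% of the reads. The main test was edgeR 4.0.16 (R 4.3.3), robust quasi-likelihood, TMM, two-sided, Benjamini-Hochberg FDR 0.05, over 7 libraries in 3 groups with 4 residual degrees of freedom; the tumour without a mark was left out. The SE is the log2 fold change divided by the root of F. The 2-fold gap and list means use log2 CPM with a prior count of 2. DESeq2 1.42.0 and limma 3.58.1 (voom) were alternatives, as were other scalings, filters and leaving out each tumour. The code was tested on simulated counts. Nothing in the labels ties tumours to batches, and p-values measure the spread between these tumours.

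Members and lists (38 lists, 665 symbols, and 1 list added later) were chosen with earlier results of these data known. A symbol with 2 identifiers was represented by the more abundant one. Genes named were Smyd3, the 8 with the smallest p on each side that were separated and had mean log2 CPM of 0 or more, members of each list among its 5 smallest p, and widely used defining genes. Some genes under these rules are not reported here. Other list members, and all gland genes, were chosen after their values were seen. A fold against 0 reads was computed against 3 reads over the group. These bounds, like the intervals, hold for counting error alone.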

Additional observations from a re-analysis of the deposited data

Results flagged for a closer look

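The Smyd3 ASO tumour without a response mark took no part in the comparison, and 4 lists had a mean log2 CPM there at least 1 unit above the highest of the 3 controls. The skeletal muscle contraction list was at 5.76, with the highest control at 1.36, and the list of myogenic regulators and developmental muscle at 2.32, with the highest control at 0.68. The interferon gamma response list was at 7.44, with the highest control at 6.03, and the type I interferon response list at 6.47, with the highest control at 5.33. With 1 tumour these differences have no replicate check.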

How the results depend on the processing

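The count of genes called was 0 with the 4 libraries alone, with all 8 libraries, with RLE size factors, with limma voom and with 10 or more reads required in all 4 tumours. It was 224 with DESeq2 (156 higher, 68 lower), of which 142 were among the 418 genes with the 2-fold gap, and 7 without a count filter (6 higher, 1 lower). Leaving out single tumours gave 0 to 27 calls; the 27, all higher, came without responder 1, and they included Des, Tnni2, Cryab, Smyd1, Car6, Ighg1 and Ighg3. Of the 101 tested genes named in the text, DESeq2 called 36, beside 224 of all 16438 genes tested. Many named genes were chosen by smallest p or after their values were seen, so their higher share gives no support. The count of genes with the 2-fold gap above was 176 and that below 38 when 10 reads were required in all 4 tumours, and the count below was 170 without a filter. Leaving out single tumours, which removes a condition by construction, gave 462 to 1103 genes above and 195 to 424 below; the counts above were 1058 without responder 1 and 1103 without non-responder 2. Without immunoglobulin segments and muscle lists, an alternative chosen after seeing the data, 297 remained above.

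Named genes changed sign only when a tumour was left out. Over those fits the log2 fold change ranged from -0.058 to 1.045 for Cd274, -1.002 to 0.23 for Csf3r, -1.59 to 6.97 for Dcpp3, -0.28 to 6.72 for Ighg1, -11.2 to 5.53 for Krt25, -0.90 to 0.76 for Ltf, -0.64 to 0.25 for Mki67, -0.19 to 4.42 for Myh4 and -0.69 to 0.42 for Smyd3. The median of the Schwann cell list ranged from -0.062 to 0.848. Dcpp3, Ighg1, Myh4 and Cd274 changed sign without responder 3, and Krt25 without non-responder 2. The cause was not tested. Of 273 list medians recomputed, 35 moved by more than the spread between tumours. Counting any change of sign, 9 medians of 7 lists crossed 0, all when a tumour was left out: neutrophil, inflammatory cytokine, melanocyte, hypoxia, cell cycle, Schwann cell and immediate early. For genes with few reads, such as those of B cells, depth limits the precision. No paired analysis was possible because the responders are numbered 1 and 3 in the labels and the non-responders have no numbers.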
